A study of Sus scrofa with 12 samples.

Results

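The transcriptome described here is that of cells scraped from the pig oviduct and lysed as single cells without culture, called fresh cells below. It was measured in 4 of the 12 libraries of a series that accompanies a protocol for making oviduct spheroids; the other libraries are of cultured spheroids and enter no value given here. The 4 libraries were chosen by their treatment label, and all are labelled as epithelial cells of the oviduct. Breed, age, stage of the estrous cycle and number of animals are not given in the sources used here. Nor is it stated whether the replicates came from separate animals, so the spread between them may be technical. With 1 group and no contrast, every value below is a description, given with its spread over the libraries and no test between conditions.

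The oviduct is lined by a simple epithelium of secretory and multiciliated cells. Secretory cells release glycoproteins such as OVGP1, the oviductal glycoprotein that binds the zona pellucida of the oocyte and embryo, along with protease inhibitors and growth factors. Multiciliated cells beat to move the gametes and embryo, and their differentiation is driven by the transcription factor FOXJ1. Estrogen and progesterone act on both through the receptors encoded by ESR1 and PGR. Below the epithelium lie fibroblasts, smooth muscle, vessels and leukocytes, which scraping can bring along. Immediate early genes, such as FOS, are transcribed rapidly after growth factor, mechanical or stress signals and need no new protein synthesis.

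Levels are in CPM, counts of a gene per 1000000 counts of the library, taken as deposited. Sequencing was of the 3′ ends of polyadenylated RNA, which yields tags near the end of a transcript whatever its length, so levels of different genes are set side by side without division by length. The annotation is not given in the sources used here. Whether each row takes in the end of its transcript was therefore not checked, which limits the reading of low and 0 counts. Total counts ranged from 5045218 to 6026901 per library, and a count of 0 allows a level of up to 0.498 to 0.595 CPM, depending on the library (3 counts; counting error only). No library stood apart from the rest: Pearson's r of log2 levels across 9378 genes was 0.972 to 0.98 over the 6 pairs, with genes not being independent replicates. Each pair still differed by more than counting noise, with a chi-square per degree of freedom of 6.23 to 9.83. Some reads had been split, since 19.1 to 19.7% of the nonzero counts of a library were not whole numbers. Rows with such counts held 69.2% ± 0.455 (SD, n = 4) of all counts. Whether reads were split over similar sequences or over overlapping rows is not given in the sources used here. The level of a gene with counts that are not whole is uncertain in either case. The table gives no coordinates, so no genome positions are stated.

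Of 30461 gene rows, 13265 reached at least 1 CPM in all 4 libraries, and these held 99.64% ± 0.0197 of the counts (SD, n = 4). A further 8394 rows had a count of 0 in every library. Single libraries had 14108, 14382, 14291 and 14357 rows at 1 CPM or more in replicates 1 to 4. Few genes held much of the total. In replicates 1 to 4, the first 10 rows of the ranking by mean made up 10.1, 10.3, 9.5 and 10.2% of the counts. The first 100 made up 33.7% ± 0.92 and the first 1000 made up 63.7% ± 0.905. The number of rows needed to reach 50% of the counts was 322, 303, 368 and 346. By level, 146 rows had a mean of at least 1000 CPM and held 39.4% of the counts, 1350 rows lay from 100 to 1000 CPM with 30.1%, and 7882 rows lay from 10 to 100 CPM with 28.2%. The 5043 rows from 1 to 10 CPM held 2.1%. Among the 100 most abundant rows, 86 ranked within the first 100 in every library and 20 had no gene symbol. Rows without a symbol held 21.1% ± 0.231 of all counts.

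**Figure D1:**
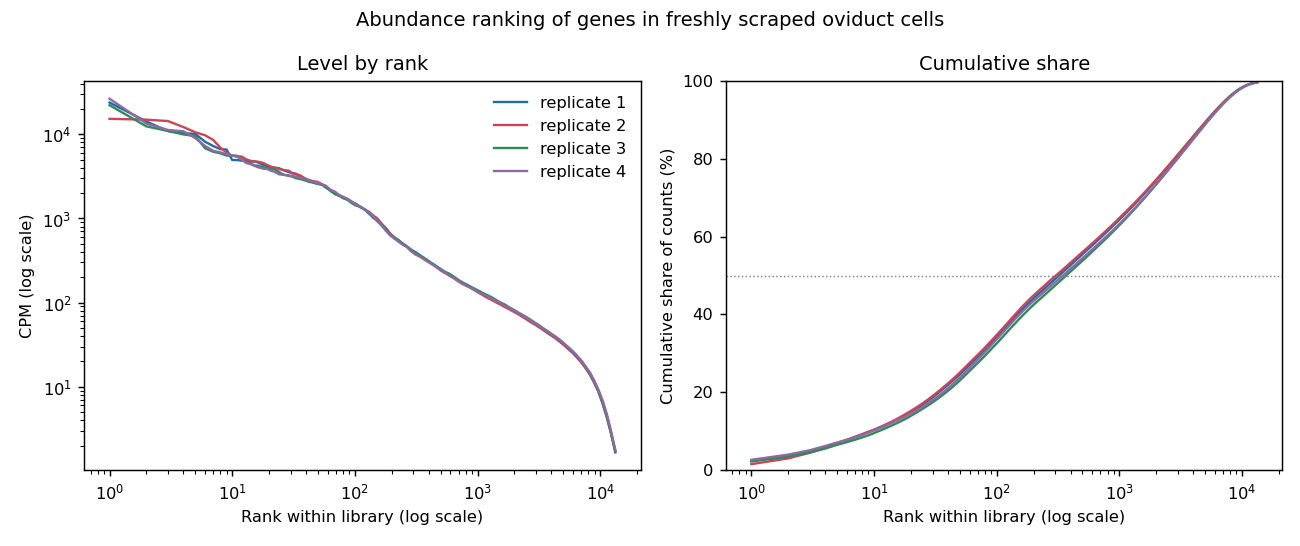
Level in CPM (left, log scale) and cumulative share of counts in percent (right) against the rank of a gene within its library (log scale), 1 line per library. The 4 lines nearly coincide below the first ranks; replicate 2 starts lower, at 15268 CPM for its first gene, and the dotted line marks 50% of the counts, reached between ranks 303 and 368.

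OVGP1 (ENSSSCG00025053839) was the most abundant row in each of the 4 libraries. Its level was 23841, 15268, 22167 and 26469 CPM in replicates 1 to 4, with a mean of 21936 ± 4790 (SD, n = 4), or 2.19% of all counts. Replicate 2 lay below the other three, and the highest library was 1.73-fold above it. Next came TPT1 (ENSSSCG00025011421), the translationally controlled tumor protein, at 14191, 14364, 12413 and 13396 CPM. In replicates 1, 3 and 4 OVGP1 exceeded TPT1 by 1.68, 1.79 and 1.98-fold, but in replicate 2 the ratio was only 1.06. FOS (ENSSSCG00025046805), the immediate early transcription factor, came next by mean, at 10296, 14930, 10958 and 11255 CPM. Replicate 2, which was lowest for OVGP1, was highest for FOS, 1.45-fold above replicate 1.

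The translation elongation factor EEF1A1 (10573 ± 431 CPM) and the ubiquitin gene UBB (10212 ± 1400) followed, and the sixth row, ENSSSCG00025048625, has no symbol (7558 ± 1590). Further immediate early genes among the first 10 rows were the GTPase gene RHOB at 7419 ± 1150 CPM and the transcription factor EGR1 at 6335 ± 668. TMSB4X, which encodes the actin-binding thymosin beta, averaged 5498 ± 604 CPM and the chromatin protein gene PTMA 4953 ± 87.6. Among the 25 most abundant genes with a symbol were also the matricellular genes CCN2 (4915 ± 1710) and CCN1 (3515 ± 957), the transcription factor JUND (3875 ± 1040), the cochaperone gene DNAJB1 (4706 ± 673) and the small heat shock gene CRYAB (3452 ± 746). The antiprotease SLPI (ENSSSCG00025059729) averaged 4148 ± 1220 CPM and the cytoplasmic actin ACTG1 3624 ± 359. The remaining 9 were ribosomal protein genes, from RPL7 at 4194 ± 161 CPM to RPL34 at 3238 ± 85.8. All 25 had counts that were not whole.

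**Figure D2:**
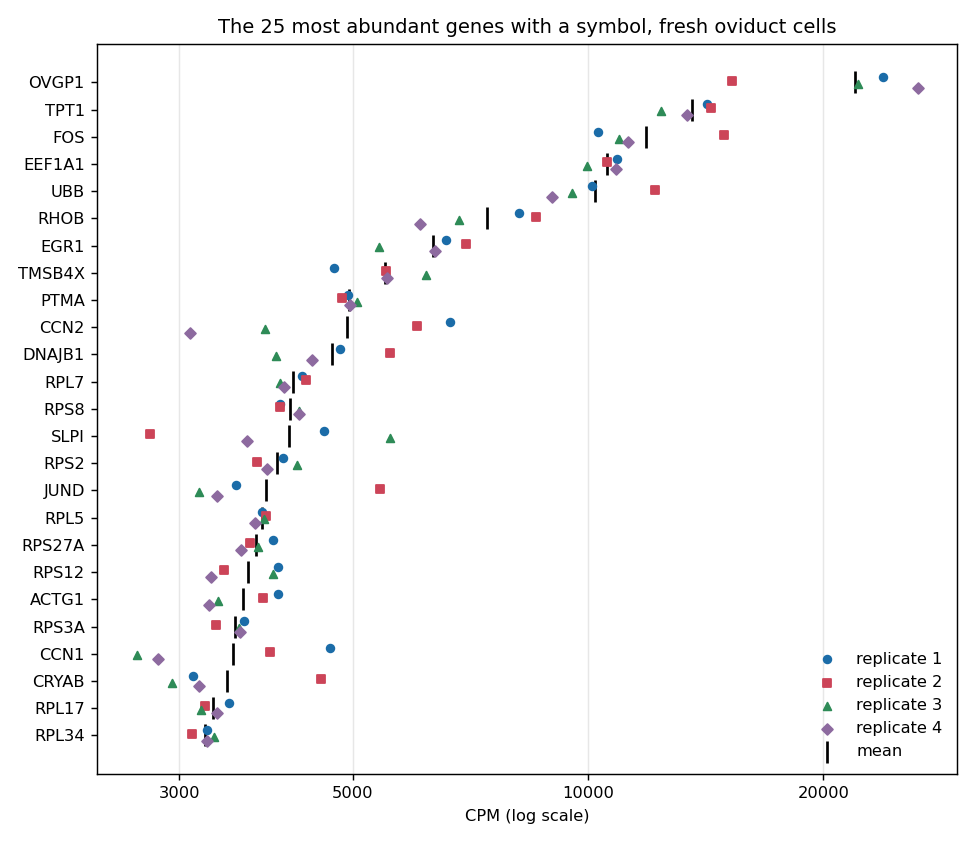
CPM (log scale) of the 25 most abundant genes with a symbol, ordered by mean; coloured points are the 4 libraries and black bars the means. OVGP1 has the highest mean, 21936 CPM; ribosomal protein genes lie close together across libraries, whereas CCN2 spans 3095 to 6664 CPM and SLPI 2752 to 5581.

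Of the 100 most abundant rows, 37 were cytosolic ribosomal protein genes, 10 immediate early genes, 7 heat shock and cytosolic chaperone genes, 3 genes of secretory cells and 2 of epithelial adhesion. The ribosomal gene RPLP0, at rank 41, is not among the 37, as it was counted with the reference genes, but it is among the 65 below. The fibroblast list and the endoplasmic reticulum chaperone list each gave 1 row, MGP and HSPA5. The 65 rows with a ribosomal protein symbol held 12.3, 12, 12.6 and 12.5% of the counts in replicates 1 to 4, and 55 of them had a mean of at least 1000 CPM. They were also the steadiest group, with a median coefficient of variation of 4.4% against 11.2% for all 9378 genes with a mean of at least 10 CPM. Most of those 9378 were far less abundant. For the 146 rows with a mean of at least 1000 CPM, ribosomal ones included, the median was 8.03%.

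Protein coding genes held 97.7% ± 0.143 of the counts (SD, n = 4) and made up 12104 of the 13265 detected rows, or 91.2%. Long noncoding RNA rows held 1.61, 1.79, 1.82 and 1.88% in replicates 1 to 4. Of 6472 such rows, 887 were detected at 1 CPM or more in all libraries (13.7%, against 59.3% of the protein coding rows). The noncoding counts were concentrated: the 5 most abundant rows held 32.1% ± 1.45 of them. The first, ENSSSCG00025076010, was at 1723, 2349, 2975 and 3153 CPM and ranked 53rd of all rows. Replicates 3 and 4 were its highest libraries, and it accounted for 0.172 to 0.315% of all counts. None of the long noncoding rows carries a symbol (0 of 6472). Pseudogenes held 0.451% ± 0.0321 of the counts, with 223 of 1316 rows detected. The small RNA classes were near the bottom, as snoRNA rows held 0.0172% ± 0.00245, snRNA rows 0.00761% ± 0.00109 and miRNA rows 0.00433% ± 0.000471; capture was by oligo-dT, which selects polyadenylated RNA. No row carried a symbol of a mitochondrial genome gene (0 found), so the mitochondrial share was not analysed here.

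The lineage of the cells was read from gene lists for each cell type, of which 242 of 336 symbols had a row. In bulk RNA, fewer cells of a type and less RNA per cell cannot be told apart, so the sums below are levels and not cell numbers. Secretory and epithelial adhesion genes had the highest sums among the lineage lists. The secretory list summed to 32441, 21539, 30858 and 34199 CPM, the epithelial adhesion and keratin list to 7347, 7375, 6566 and 6546, and the motile cilium list to 3243, 2677, 2998 and 2763. The regulators of multiciliogenesis summed to 703 ± 18.8 CPM (SD, n = 4). Together these 4 lists held 90.3% ± 1.05 of the CPM summed over them and the 11 lists of other cell types, and 81% ± 1.02 without OVGP1. Among rows whose counts were all whole, the share was 54.4%, since OVGP1, SLPI, SPP1 and EPCAM are not in that subset. Symbols without a row enter neither side of these shares. They include VIM, DCN, LUM, MYH11, HBB, LYZ and CD68 of other cell types, and PAX8, KRT7 and KRT19 of the epithelial lists. The shares are therefore no measure of epithelial purity.

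**Figure D3:**
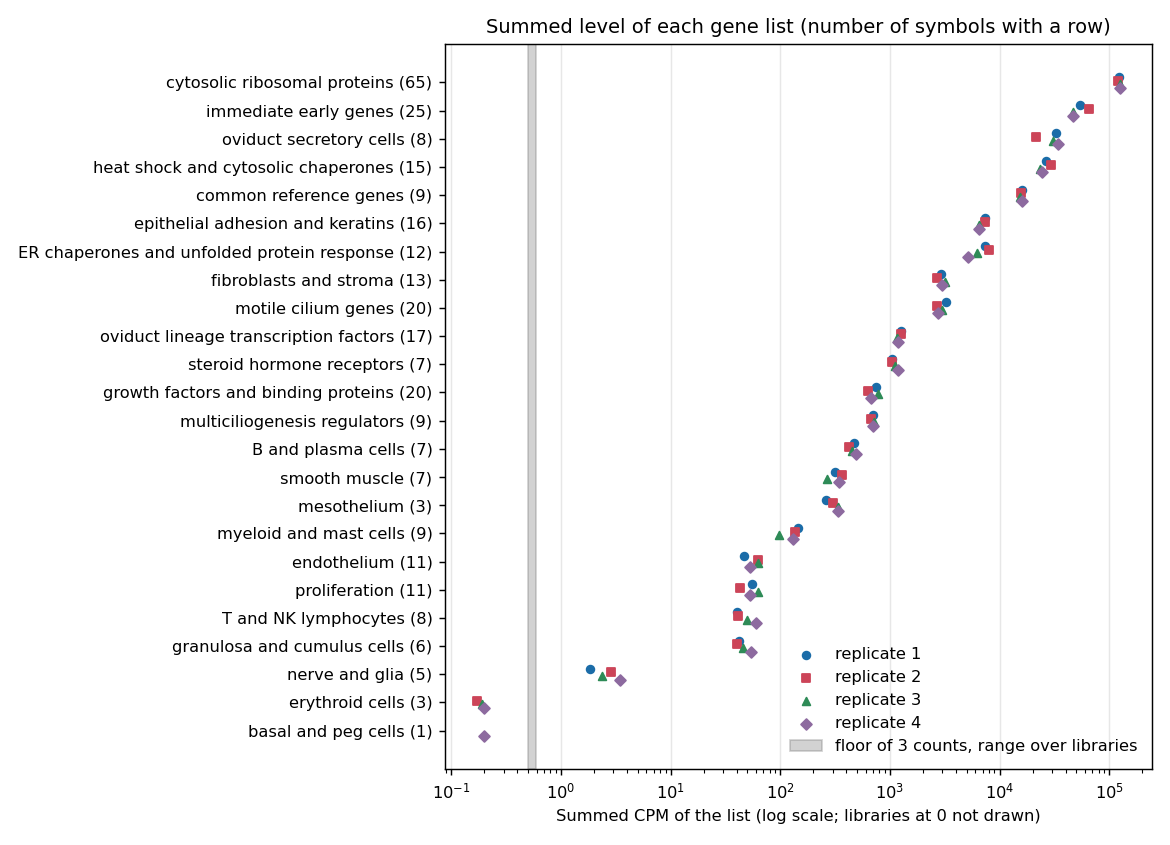
Summed CPM of each gene list (log scale), with the number of symbols that had a row in parentheses; points are the 4 libraries and the grey band spans the floors of 3 counts. The ribosomal, immediate early, secretory and heat shock lists are the 4 highest in every library, whereas the erythroid and basal cell lists lie below the floor.

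OVGP1 held 73.7% of the secretory sum, which without it was 7823 CPM. All 8 secretory genes with a row were detected in all libraries, and 10 of the 18 symbols, PAX8 and WFDC2 among them, had no row under that name. SLPI, an inhibitor of leukocyte elastase, was at 4599, 2752, 5581 and 3662 CPM. As for OVGP1, replicate 2 was the lowest library, 2.03-fold below replicate 3. The secreted phosphoprotein SPP1, also called osteopontin, averaged 2938 ± 478 CPM and the iron-binding protein LTF 266 ± 13.9. Complement C3 was at 117, 275, 230 and 272 CPM, low in replicate 1 alone. The cell surface mucin MUC1 averaged 157 ± 18.3 CPM, and SOX17, a transcription factor of the secretory lineage, 80.5 ± 8.11. PIGR, the receptor that carries polymeric immunoglobulin across epithelia, was least abundant at 17.3, 10.2, 6.44 and 7.04 CPM, a 2.68-fold range. Secretory genes therefore differed in which library was lowest: replicate 3 for 4 of 8, replicates 1 and 2 for 2 each.

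FOXJ1 (ENSSSCG00025047743) was at 419, 429, 461 and 476 CPM, with a mean of 446 ± 27. Its counts were whole in every library and its coefficient of variation was 6.04%. OVGP1 exceeded it by 35.6-fold in replicate 2 and by 48.1 to 56.9-fold in the other libraries. The other regulators were lower. TP73, a p53 family factor needed for multiciliogenesis, averaged 73 ± 7.5 CPM, RFX2 62.6 ± 8.59, GMNC, the geminin-like protein that starts the programme, 33.9 ± 8.27 and MYB 23.4 ± 2.89. All 9 regulators with a row reached 1 CPM in all libraries, down to CCNO at 9.62, 3.44, 4.17 and 3.37 CPM.

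The motile cilium list had 20 of its 33 symbols on a row, and 19 were detected in all libraries. TUBB4B, a tubulin of the axoneme, averaged 504 ± 67.6 CPM, the tubulin-binding TPPP3 427 ± 57.4, the centrin CETN2 391 ± 27.8, ROPN1L of the radial spoke 338 ± 35.6, the dynein light chain DYNLRB2 325 ± 60 and ZMYND10, an assembly factor of dynein arms, 143 ± 9.02. AK7 was at 0.332, 0.688, 0.853 and 0.198 CPM, at or near the floor. Of the cilium genes, 0 of the 18 with a mean of at least 10 CPM varied 2-fold, near the 3.88% of all 9378 such genes, and their median coefficient of variation was 10.7%. Of these 18, 11 were highest in replicate 1 and 10 lowest in replicate 2. With TMM scaling the lowest library of most became replicate 4 (11 of 18), so the second count depends on the scaling.

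EPCAM (ENSSSCG00025052178), the epithelial adhesion molecule, was at 1000, 865, 900 and 786 CPM, with a mean of 888 ± 88.9. Higher still was the tight junction claudin CLDN4, at 1624 ± 248 CPM. The keratin KRT8 averaged 819 ± 36.5, CLDN10 397 ± 65.3 and the epithelial cadherin CDH1 393 ± 35.2. All 16 symbols of this list with a row were detected in every library. Of its rows with a mean of at least 10 CPM, 0 of 16 varied 2-fold among libraries, near the 3.88% of all 9378 genes.

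ESR1 (ENSSSCG00025044932), the estrogen receptor alpha, was at 539, 600, 666 and 688 CPM, a mean of 623 ± 67.7. The progesterone receptor PGR was at 87.3, 43.6, 67.8 and 68.6 CPM, with replicate 1 highest and replicate 2 lowest, a 2-fold range. ESR1 exceeded PGR by 6.17, 13.7, 9.82 and 10-fold in replicates 1 to 4. The second estrogen receptor gene, ESR2, was at 0 in replicates 1 and 4 and at 0.344 and 0.189 CPM in replicates 2 and 3, all below the floor. The membrane-associated PGRMC1 and PGRMC2 averaged 255 ± 24.8 and 108 ± 8.22 CPM, and the mineralocorticoid receptor NR3C2 38.5 ± 3.37. The glucocorticoid receptor NR3C1 had no row under that symbol.

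Among transcription factors of the female tract, 12 of 17 with a row were detected in all libraries. KLF5, an epithelial Krüppel-like factor, was highest at 458 ± 66.7 CPM, followed by the homeobox gene MEIS1 at 356 ± 23.1, NR2F2 at 98.5 ± 9.39, TEAD1 at 63 ± 8.16, SOX9 at 55.4 ± 6.57 and MEIS2 at 53.3 ± 6.78. The homeobox genes HOXA7, HOXA10 and HOXC6 had a count of 0 in all 4 libraries, and HOXA9 did not exceed 0.198 CPM in any. HOXD8 was the only HOX gene of the list detected in all libraries, at 5.31, 13.4, 2.27 and 5.35 CPM.

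Lists of other cell types were uneven. The fibroblast list summed to 2923, 2681, 3194 and 2967 CPM (2941 ± 211), close to the motile cilium list (2920 ± 254), which was lower than it in 3 of 4 libraries, and above the regulators of multiciliogenesis. Most of the fibroblast sum came from 3 genes: MGP at 1586 ± 288, FBLN1 at 844 ± 157 and SPARC at 425 ± 25.2, all of the extracellular matrix. The fibrillar collagens were low. COL1A1 (ENSSSCG00025071146) was at 21.7, 36, 16.5 and 48.6 CPM, COL1A2 at 8.3, 27, 27.9 and 11.3, and COL3A1 at 26.4, 22.2, 14.4 and 31.7. COL1A1 and COL3A1 were both highest in replicate 4 and lowest in replicate 3, whereas COL1A2 was highest in replicate 3. EPCAM exceeded COL1A1 by 16.2 to 54.6-fold. PDGFRA, a receptor that marks fibroblasts, averaged 1.1 ± 0.696 CPM, and THY1, TCF21 and COL6A1 were at 0 in at least 1 library. Of the 13 fibroblast genes with a row, 7 were detected in all libraries. Another 5 of the 18 symbols, VIM and DCN among them, had no row under that name.

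The smooth muscle list summed to 317, 366, 267 and 340 CPM, of which TAGLN, an actin-binding protein also found outside muscle, made up 80.8%. DES, the muscle intermediate filament gene, had a count of 0 in all libraries, and ACTA2 was at 0.387, 2.24, 1.71 and 2.48 CPM. The endothelial sum was 47, 62.6, 62.6 and 52.5 CPM, led by the receptor KDR at 20.6 ± 6.67 and by PECAM1 at 14.9 ± 0.975, with VWF at 0 counts in all libraries. The mesothelial list summed to 308 ± 35.7 CPM, all of it from WT1 (211 ± 24.2), a transcription factor of mesothelium and of the tract's mesenchyme, and the uroplakin UPK1B (97.3 ± 22.2). CALB2, a defining mesothelial gene, had a count of 0 in all 4 libraries.

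PTPRC (ENSSSCG00025029706), the pan-leukocyte antigen CD45, was at 8.13, 5.51, 7.39 and 6.54 CPM, and EPCAM exceeded it by 120 to 157-fold. The T and NK cell list, which includes PTPRC, summed to 39.9, 41.1, 49.8 and 60.2 CPM. The T cell receptor subunit CD3G made up 46.6% of that sum. CD3G averaged 22.2 ± 2 CPM, whereas the subunits CD3E and CD3D averaged 1.41 ± 0.862 and 1.07 ± 0.66. The level of CD3G was therefore not shared by these subunits, and its counts were not whole in at least 1 library. The chemokine CCL5 was at 6.47, 7.4, 11.9 and 17.8 CPM, highest in replicate 4. Myeloid genes summed to 127 ± 20.3 CPM, led by the complement genes of macrophages C1QB (49.1 ± 7.43) and C1QA (32.5 ± 5.86), while the neutrophil gene S100A8 was at 0 in 3 libraries and at 0.172 CPM in replicate 2. The B and plasma cell list summed to 459 ± 24.5 CPM, but CD79A alone held 98.1% of it, at 459, 420, 446 and 475 CPM. Without CD79A the sum was 8.94 CPM. MS4A1 was at 0 counts in all libraries, and CD79B, the partner of CD79A in the B cell receptor, averaged 0.412 ± 0.179 CPM. The level of CD79A was therefore not shared by the other 6 genes of its list. Its counts were not whole in at least 1 library.

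Several lists were low over the symbols that had a row, and the erythroid and basal cell lists lay below the floor. The 3 erythroid genes with a row summed to 0, 0.172, 0.189 and 0.198 CPM, and those of nerve and glia to 2.63 ± 0.698. The globin genes HBB and HBA1 had no row under those symbols, so their levels are not known. TP63, the only basal cell symbol with a row, had a count in replicate 4 alone (0.198 CPM). The granulosa and cumulus list summed to 45.5 ± 6.27 CPM, of which 64.9% was AMH at 29.5 ± 5.85, with FSHR and CYP11A1 at 0 counts in all libraries. STAR averaged 15.4 ± 1.68 CPM, and both AMH and STAR were detected in all libraries. Those genes of the cell cycle that had a row were low as well. The proliferation list summed to 55, 43.1, 62 and 53.2 CPM over 11 genes, led by the replication helicase subunit MCM2 at 13.6 ± 2.02 and the topoisomerase TOP2A at 7.57 ± 1.85. Another 7 of its 18 symbols, MKI67 and PCNA among them, had no row under that name, so their levels are not known. The part of these other cell types in the differences between libraries was not tested.

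Immediate early genes were the largest list after the ribosomal genes. They summed to 54110, 65098, 47126 and 47101 CPM in replicates 1 to 4, or 5.34% of all counts on average, and 18 of the 25 genes with a row had a mean of at least 100 CPM. ATF3, a stress-induced transcription factor, was at 2855, 4216, 3041 and 2814 CPM. The phosphatase gene DUSP1, which turns off MAP kinases and whose counts were all whole, was at 2358, 3731, 3008 and 3035 CPM. NR4A1, an orphan nuclear receptor, was at 2177, 1495, 1293 and 1425 CPM, so its highest library was replicate 1 and not replicate 2. Only EGR3 lay at or below the floor in every library, at no more than 0.332 CPM.

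The immediate early genes divided by the library in which they peaked. Replicate 2 was highest for 12 of the 24 with a mean of at least 10 CPM, among them FOS, EGR1, ATF3, DUSP1 and JUN, which was at 1055, 2079, 1731 and 1648 CPM. Replicate 1 was highest for 9, among them CCN1, CCN2, NR4A1, the orphan receptor NR4A3, IER3, EGR2 and FOSL1. Replicate 3 was highest for 0 of the 24. TMM scaling and DESeq2 size factors moved 1 gene, to 10 in replicate 1, and left 12 and 0 in replicates 2 and 3. CCN2 fell from 6664 and 6041 CPM in replicates 1 and 2 to 3861 and 3095 in replicates 3 and 4. FOSL1 had the same arrangement, at 41.3, 28.9, 11.9 and 12.7 CPM, a 3.46-fold range. Of the 24 genes, 5 varied 2-fold or more (CCN2, IER3, NR4A3, EGR2 and FOSL1), against 3.88% of all 9378 genes, and all 5 were highest in replicate 1. The median coefficient of variation of the list was 25.4%, against 11.2% for all 9378 genes.

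**Figure D4:**
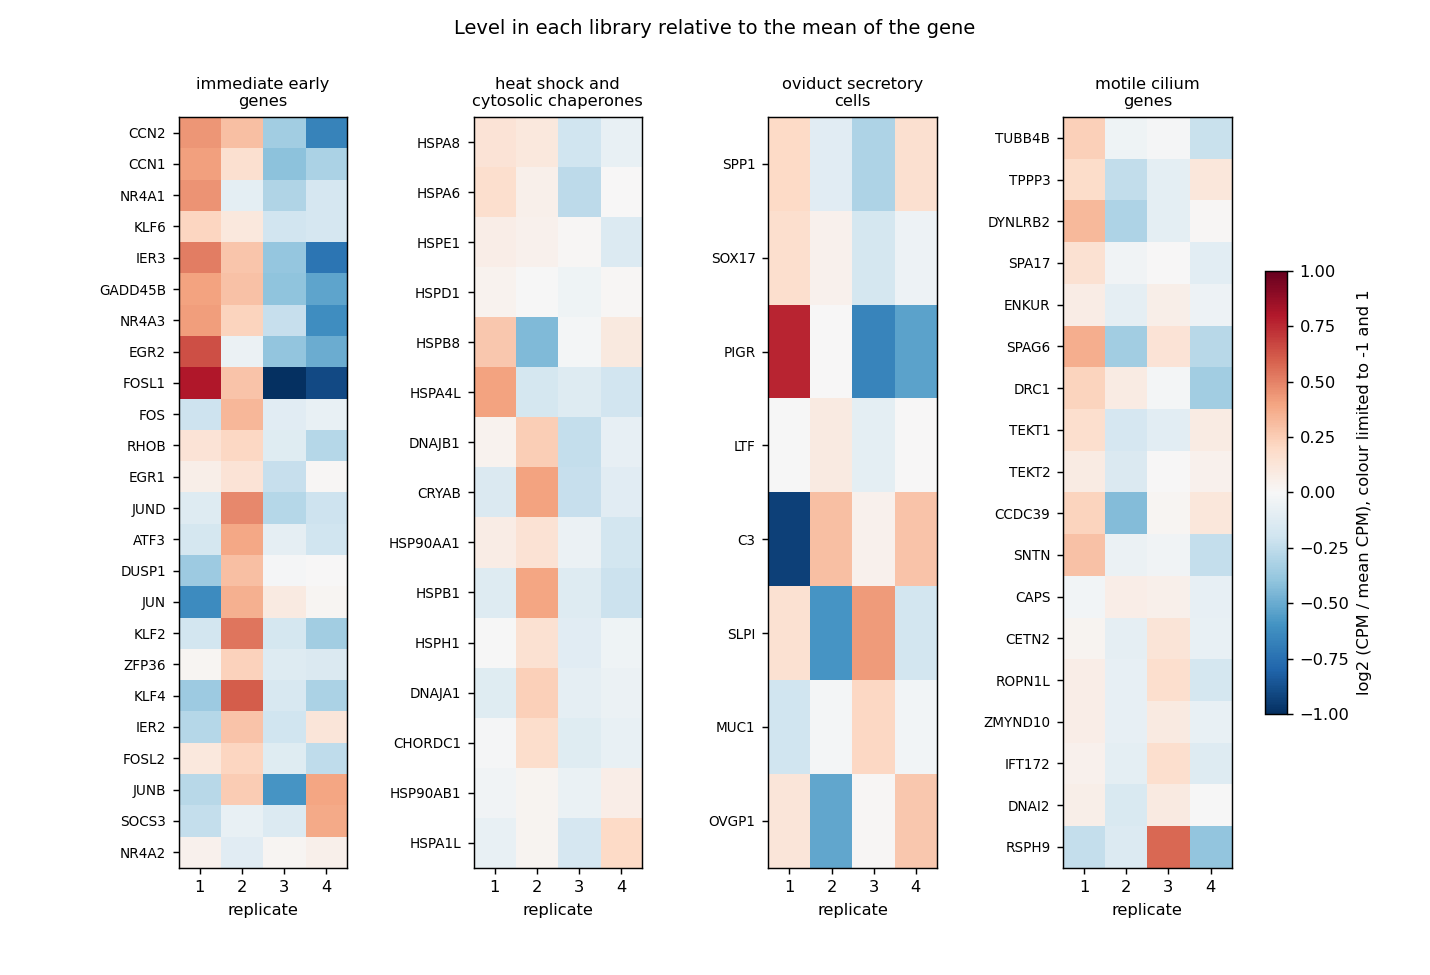
Each cell is the log2 ratio of the level in a library to the mean of the gene over the 4 libraries, for genes with a mean of at least 10 CPM on 4 lists, sorted by the library in which they are highest. Among immediate early genes, one block (CCN2 to FOSL1) is highest in replicate 1 and another (FOS to FOSL2) in replicate 2; OVGP1 and SLPI are lowest in replicate 2.

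Chaperones formed another abundant group. The heat shock and cytosolic chaperone list summed to 26448, 29743, 23202 and 24493 CPM, or 2.6% of the counts, with all 15 genes that had a row detected in all libraries. DNAJB1, the cochaperone of HSP70 proteins, was at 4819, 5579, 3991 and 4434 CPM, and the constitutive HSPA8 averaged 3136 ± 342. The strictly inducible HSP70 gene HSPA6 was at 3406, 3131, 2527 and 3037 CPM, nearly level with HSPA8. HSP90AA1, the inducible HSP90 gene, averaged 3017 ± 306 CPM, and the constitutive HSP90AB1 1579 ± 67.1. The small heat shock genes CRYAB and HSPB1 were set apart by replicate 2. CRYAB was at 4560 CPM there against 2936 to 3184 in the others, and HSPB1 at 3698 against 2424 to 2580. Replicate 3 was the lowest library for 9 of the 15 genes. Their median coefficient of variation was 10.9%, against 11.2% for all 9378 genes, and 0 of 15 reached 2-fold, near the 3.88% of all genes. HSPA1A and HSPA1B had no row under those symbols, and counts of 13 of the 15 rows were not whole.

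The chaperones of the endoplasmic reticulum summed to 7412, 7975, 6225 and 5207 CPM. HSPA5, the HSP70 protein of that compartment, was at 3620, 4094, 2658 and 2448 CPM and held 47.8% of the sum. HERPUD1, a component of the degradation of misfolded proteins, was at 906, 1120, 741 and 545 CPM, a 2.06-fold range. Next came the disulfide isomerase PDIA6 at 568 ± 105, ATF4, the transcription factor of the integrated stress response, at 452 ± 97.1, XBP1 at 427 ± 24.6 and the secreted factor MANF at 420 ± 86.6. Replicate 4 was the lowest library for 8 of the 12 genes, and for 9 of 12 with TMM scaling.

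The spread among the 4 libraries was small for most genes. Over the 9378 rows with a mean of at least 10 CPM, the median coefficient of variation was 11.2% and the median ratio of the highest to the lowest library 1.28. Counting error alone would give 13.4% at 10 CPM, about 55.4 counts. The median coefficient of variation was 12.3% from 10 to 50 CPM, where the median counting error was 8.75%, and 9.54% from 50 to 200 CPM. It was 9.36% from 200 to 1000 CPM and 8.03% above 1000 CPM, where counting error was 0.977%. The biological coefficient of variation estimated by edgeR was 13.3%, and it was 12.4 to 14% with 1 library left out.

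A ratio of at least 2 between the highest and lowest library was reached by 364 of the 9378 genes (3.88%). With replicate 1, 2, 3 or 4 left out, the count was 196, 273, 238 or 244. A range over 3 libraries lowers the count by construction. The 364 genes were highest in replicate 1 for 112, in replicate 2 for 64, in replicate 3 for 99 and in replicate 4 for 89. They were more often low, as 76.9% had a mean under 50 CPM against 64.5% of all 9378, and more often unnamed, as 42.9% had no symbol against 26.4%. Long noncoding rows made up 7.42% of them and 2.7% of all. Rows with counts that were not whole were about as frequent (43.4 and 44.5%). Of the 156 rows on the fixed lists with a mean of at least 10 CPM, 18 varied 2-fold (11.5%). They included 3 of 8 secretory genes (SLPI, C3 and PIGR), 3 of 7 fibroblast genes (the 3 collagens), and KDR and CDH5 among 3 endothelial genes.

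Among 2644 genes with a symbol and a mean of at least 50 CPM, the largest coefficient of variation was that of HNRNPL, a splicing regulator, at 101, 248, 285 and 86.1 CPM (56.1%). SLA-6, a class I gene of the pig major histocompatibility complex, was at 118, 189, 86.4 and 307 CPM (55.9%). FGFBP1, which releases fibroblast growth factors from the matrix, was at 139, 33.7, 65 and 91.2 CPM (54.2%). The orders of the libraries differed from gene to gene. LGALS1, a galectin, was lowest in replicate 1 (73.8 CPM) and highest in replicate 3 (331), and THOC6, of the mRNA export complex, was at 682 CPM in replicate 2 against 280 to 329 in the others. CPXM2 spanned 43.3 to 163 CPM, the actin-binding ENC1 36.5 to 99.7, TMEM213 40.7 to 100, the extracellular superoxide dismutase SOD3 40.4 to 121 and the pseudokinase TRIB1 76.5 to 235. Of these 10 genes, 7 had counts that were not whole.

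At the other end, PPP1CC, a catalytic subunit of protein phosphatase 1, was at 210, 209, 211 and 210 CPM, a coefficient of variation of 0.272%, where counting error alone would give 2.93%. The ribosomal genes RPL6 (2528 ± 12.3 CPM) and RPL30 (2600 ± 23.5), the protease CAPN2 (143 ± 0.798), the ATPase RUVBL2 (55.4 ± 0.335), MLF2 (120 ± 0.759), LSM6 (97.7 ± 0.98), LRATD1 (642 ± 6.72) and TPD52 (75.5 ± 0.831) were also among the 10 steadiest. For 9 of the 10 the spread was below counting error, as it was for 253 of the 2644 genes, so their order says little about which gene is steadier.

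**Figure D5:**
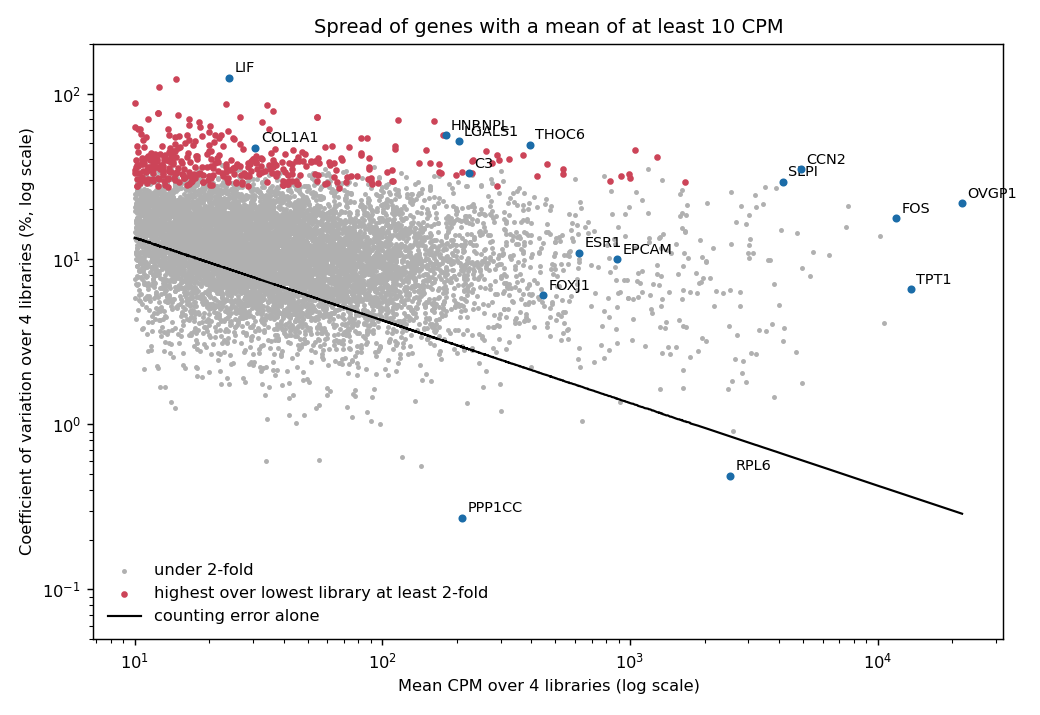
Coefficient of variation over the 4 libraries (percent, log scale) against mean CPM (log scale) for 9378 genes with a mean of at least 10 CPM; red points reach a 2-fold ratio between the highest and lowest library, blue points are labelled genes and the line is counting error alone. OVGP1 (21.8%) and FOS (17.6%) lie far above the line, TPT1 (6.56%) and FOXJ1 (6.04%) less so, and PPP1CC (0.272%) below it.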

How the data were processed

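Libraries of polyadenylated RNA from freshly scraped pig oviduct cells were primed with oligo-dT and tagmented, per the labels' protocols. The submitters' processing notes name fastp 0.24.0, STAR 2.7.11, SAMtools 1.22.1 and featureCounts of Subread 2.1.1. Genome build, annotation, strand setting and any use of molecular identifiers are not given in the sources used here. The deposited table of the authors gives each gene row an expected count in each library and a CPM value, the count per 1000000 of the library total. The 92 rows of biotype transgene were dropped, and 0 of the 30461 gene identifiers matched the pig gene tables, so symbols are those of the deposited table.

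Levels are the deposited CPM; means and SDs are over 4 libraries. A gene was detected at 1 CPM or more in all libraries. Spread was the ratio of the highest to the lowest library and the coefficient of variation, over rows with a mean of at least 10 CPM. Counting error was taken as Poisson. Expected counts were rounded for edgeR 4.0.16 (R 4.3.3; dispersion with an intercept only), whose estimate was tested on simulated data, and for DESeq2 1.42.0, used for size factors only. Named were the 25 most abundant genes with a symbol, 7 markers, up to 6 detected genes per list by mean CPM with those at or near 0, the 10 most and 10 least variable genes of at least 50 CPM, the most abundant long noncoding rows, and at most 2 rows without a symbol, which leaves 1 of the noncoding rows printed. List genes named beyond these (those varying 2-fold, and SOX17, CCNO, HOXD8, ATF3, DUSP1, JUN, NR4A1, FOSL2 and HSP90AB1) were chosen after their values were seen. A few genes that these rules select are not reported here. The members and lists were chosen with earlier results of these data known. Alternatives were other scalings, thinned counts, whole counts only, summed symbols, other thresholds and leaving out each library. Intervals and floors cover counting error only.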

Additional observations from a re-analysis of the deposited data

Results flagged for a closer look

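Among 182 values examined over the 4 libraries, 10 had a single library far from the other three (by Dixon's gap over range; chance alone flags about 1 in 20 groups). The number flagged is close to what that rate gives for 182 values, so the values below are descriptions only. Replicate 2 was the distant library for JUND (5419 CPM against 3179 to 3548), CRYAB (4560 against 2936 to 3184), HSPB1 (3698 against 2424 to 2580), THOC6 (682 against 280 to 329) and TOP2A (4.82 against 8.13 to 8.72). Replicate 3 was so for IGFBP7 (146 against 85.2 to 93.7) and TMEM213 (100 against 40.7 to 50.3), and replicate 1 for LIF (68.7 against 4.76 to 13.6). The basal cell list was at 0.198 CPM in replicate 4 and 0 elsewhere, and the erythroid list at 0 in replicate 1 and 0.172 to 0.198 elsewhere, both below the floor of 3 counts. The 92 dropped rows of biotype transgene together held 20, 20, 23 and 31 counts in replicates 1 to 4. The highest of these sums was 0.000614% of its library.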

How the results depend on the processing

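TMM scaling, DESeq2 size factors, thinned counts, summed symbols and medians left each library-wide value within 1 SD, or within 1.5 times for counts. TMM and DESeq2 factors rescale a whole library, so the share of a given set of rows within it cannot change. Nor can the number of rows holding 50% of its counts. They could change the ranking, the rows detected (13327 with each) and the genes varying 2-fold (365 with each). Without the 10 most abundant genes, the first 10, 100 and 1000 rows held 4.98, 27.9 and 59.9% of the counts, protein coding genes 97.5%, long noncoding rows 1.97% and the epithelial lists 81.0% of the lineage CPM; OVGP1 and FOS are among the genes removed. With only whole counts, 13 of the 100 most abundant rows were left, the first 10, 100 and 1000 rows held 7.27, 22.1 and 55.3%, 772 rows held 50% of the counts, long noncoding rows held 1.97% and the epithelial lists 54.4%, and 686 genes (9.83%) varied 2-fold, among CPM rescaled to that subset, where 10 CPM stands for fewer counts. Detection above 0 in any library gave 22067 rows. The number of genes varying 2-fold was 84 (2.52%) from a mean of 50 CPM, 2489 (17.3%) from 1 CPM, 312 with a pseudocount of 1, and 196 to 273 (2.09 to 2.91%) without 1 library, which a range over 3 libraries lowers by construction. Leaving out 1 library moved none of the 152 gene means or 23 list sums compared by more than 1 SD. By construction it could not, since dropping 1 library shifts a mean by less than 1 SD whatever the values. That comparison therefore says nothing about how far these means and sums depend on a single library. Without its most abundant member, 21 of the 22 list sums that could be computed fell by more than 1 SD. No paired analysis was possible because the values come from 1 group and no comparison was tested. Levels under about 0.6 CPM cannot be told from 0 at this depth, and genes whose reads were split cannot be ranked firmly.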

Other observations

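Growth factors and their binding proteins, which the oviduct is known to secrete around the embryo, summed to 753, 636, 773 and 666 CPM, and 14 of the 20 genes with a row were detected in all libraries. The binding proteins IGFBP5 (184 ± 33.6 CPM, SD, n = 4), IGFBP2 (114 ± 28.3) and IGFBP7 (103 ± 29) were among the highest, whereas the insulin-like growth factor genes were low, with IGF1 at 0.58 ± 0.189 CPM and IGF2 at 0.939 ± 0.631. The EGF receptor ligand HBEGF was at 229, 173, 163 and 137 CPM and AREG at 37.2, 25.6, 14.8 and 13.5, both highest in replicate 1. The cytokine LIF had the widest range of all named genes with a mean of at least 10 CPM, at 68.7, 13.6, 9.1 and 4.76 CPM, or 14.4-fold. The replicate highest for these 3 genes was also highest for CCN2, IER3 and FOSL1; whether they share a cause was not tested.

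Genes often used as references for quantitative PCR differed in how steady they were. GAPDH was at 472, 457, 493 and 487 CPM, a coefficient of variation of 3.42%, and RPLP0 at 1.81%, while YWHAZ was at 542, 392, 500 and 429 CPM (14.5%). ACTB, B2M, PPIA and TBP had no row under those symbols.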
